A study of Mus musculus with 24 samples.

Results

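The genes described here are 10 detoxification genes that are classed as targets of NRF2: Nqo1, Hmox1, Gclc, Gclm, Gsr, Txnrd1, Srxn1, Gstm1, Gsta3 and Gsto1. They are 10 of the 12394 genes that have a probe set with 1 symbol. They were chosen by symbol, and every probe set annotated to one of these symbols was taken, which gave 22 of the 22690 probe sets on the Affymetrix Mouse 430A array. Of these, 19 had a mean signal above the filter of 174.9 and were tested. The 3 below it were Txnrd1 probe sets 1424486_a_at and 1424487_x_at and Srxn1 probe set 1425351_at, whose means were 142.0, 50.9 and 155.9.

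Lung RNA came from male mice aged 8 weeks, with 2 arrays for each of 12 kinds of mice. They were 9 BXH recombinant inbred (RI) strains (BXH2, BXH4, BXH6, BXH7, BXH8, BXH9, BXH10, BXH14 and BXH19), the BXHF1 hybrid (F1), and the progenitors C3H/HeJ (C3) and C57BL/6J (B6). No animal was treated. An RI strain is inbred from a cross of both progenitors and carries a fixed mosaic of their genomes. As background, C57BL/6J carries a deletion in Nnt, C3H/HeJ a missense mutation in Tlr4 and BXH2 a mutation in Irf8. The labels number the arrays of a strain and do not say how many animals each lung sample came from, so the p-values cover the variation between arrays of a strain, and part or all of it may be technical. Whole lung was used, so fewer cells of a type and less RNA per cell cannot be told apart.

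NRF2, the product of Nfe2l2, is a transcription factor that KEAP1 marks for degradation in unstressed cells. When electrophiles or oxidants modify KEAP1, NRF2 accumulates, pairs with a small MAF protein and binds antioxidant response elements near genes of glutathione synthesis, thioredoxin reduction, quinone reduction and conjugation. In lung this programme is best known for its part in the response to inhaled smoke, ozone and high oxygen.

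Lung markers were bright on every array. The surfactant gene Sftpc, of alveolar type 2 cells, had a signal of 9579 to 20160, the club cell secretoglobin Scgb1a1 11223 to 18168 and Ager, of alveolar type 1 cells, 5527 to 11118. Genes of other tissues varied between arrays, with summed signals of 1090 to 26855 for 6 skeletal muscle markers and 261 to 6537 for 4 liver markers. The liver value of 6537 was BXH8 replicate 1 alone, against 434.9 in BXH8 replicate 2 and at most 547.5 on any other array. For skeletal muscle the C3 arrays gave 1672.5 and 12491. BXH4 stood apart from the other RI strains, with 1107 of 13584 probe sets past the threshold (8.15%) in place of 172 to 323.

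The response element core searched for was TGACNNNGC, on both strands of the window from 250 bases before to 50 bases after each annotated start. RefSeq windows (build GRCm38.p6) were found for 7 of the 10 genes. Gclc, Hmox1 and Gsr had no window and were not searched. Of the 7 genes 4 held a match: Gsta3, Gclm, Txnrd1 in 1 of its 3 windows, and Srxn1. Counted by window, 4 of 10 member windows held a match, against 12.4% of all 32851 windows. The matches are shown because they are where the sequence of the members can be set beside their levels. Capitals mark the match, with 10 bases on each side, on the strand that carries it.
Gsta3: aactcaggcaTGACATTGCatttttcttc
Gclm: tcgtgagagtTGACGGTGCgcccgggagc
Txnrd1: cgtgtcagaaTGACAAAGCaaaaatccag
Srxn1: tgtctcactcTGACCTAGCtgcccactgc
The Gsta3 match lies on the gene's own strand and the other 3 on the opposite strand. The leftmost base on the gene's strand is 121 bases before the start in Gsta3, 134 before it in Gclm, 92 before it in Txnrd1 and 28 after it in Srxn1. The windows are chr1:21240335-21240634 for Gsta3, chr3:122245307-122245606 for Gclm, chr10:82858956-82859255 for Txnrd1 and chr2:152105274-152105573 for Srxn1, all on the plus strand. A match is a description of the letters and says nothing of binding.

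Across the 12 strains, only Gclc and Gsta3 among the 10 genes differed past the threshold (adjusted p below 0.05). Gclc, the catalytic subunit of glutamate-cysteine ligase and the rate-limiting enzyme of glutathione synthesis, passed with both of its probe sets, and Gsta3, a glutathione transferase, with 1 of its 2. Thus 3 of 19 tested member probe sets passed in limma's moderated F test, against a background of 9.79% of the 13584 probe sets tested. The 9 RI strains alone gave the same 3 probe sets, against a background of 9.19%. At an unadjusted p below 0.05 there were 5 of 19 in each test, against 3422 and 3435 of all 13584 probe sets. The median range of strain means was 0.66 on the log2 scale over the members and 0.57 over all probe sets tested.

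**Figure D1:**
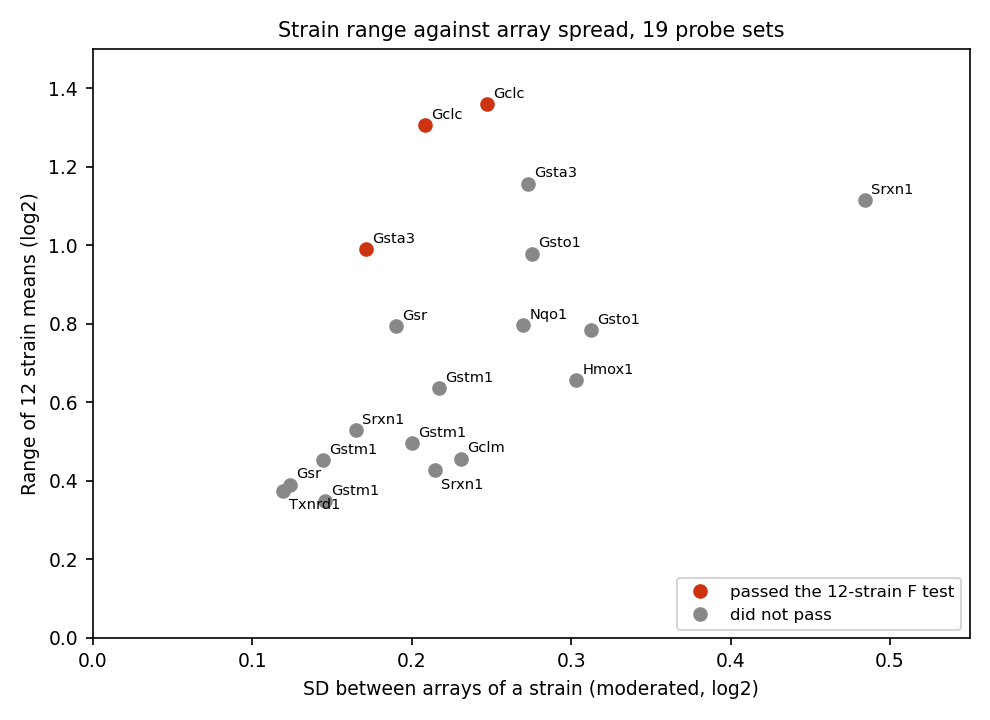
Range of the 12 strain means of log2(signal + 16) (vertical axis) against the moderated SD between arrays of a strain (horizontal axis), one point per tested probe set. Both Gclc points and the brighter Gsta3 probe set are marked as passing the F test; the Srxn1 point with a range of 1.12 has the largest spread, 0.48.

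The plot of strain range against array spread sets each range beside the noise it has to exceed. The 2 Gclc probe sets had ranges of 1.31 and 1.36 at array SDs of 0.21 and 0.25. Srxn1 probe set 1419942_at had a range of 1.12, and its 2 arrays in BXH9 gave 60.8 and 258.8.

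Gclc had the widest range of strain means among the 10 genes. With probe set 1455959_s_at the signals were 580.9 and 600.1 in BXH2, 709.1 and 625.8 in BXH19, 699.2 and 824.3 in BXH4, 763.2 and 829.8 in BXH7, and 883.8 and 878.9 in BXH9. They were 880.7 and 1139 in BXH10, 1448 and 1160 in BXH8, 1569 and 1182 in BXH14, and 1467 and 1330 in BXH6. In F1 they were 1302 and 1121, in C3 722.9 and 1034, and in B6 1185 and 1858. Both BXH2 arrays lay below all arrays of the other strains, and BXH6, BXH8, BXH14, F1 and B6 had the 5 highest means. BXH2, the lowest strain, lay 2.47-fold below B6, the highest (limma's 12-strain F = 9.00, adjusted p = 0.00147).

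From high to low the order of Gclc levels ran B6, BXH6, BXH14, BXH8, F1, BXH10, BXH9, C3, BXH7, BXH4, BXH19 and BXH2. The widest step, 0.27 on the log2 scale, lay between F1 and BXH10. A difference between any 2 strains would have to exceed 0.44 to leave its own 95% interval clear of 0. Of the steps between neighbours in this order, 0 did so. With 2 arrays per strain a narrower break would not be seen, so this cannot tell a gradual order from a stepped one.

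Probe set 1424296_at, the other one for Gclc, gave nearly the same order. Its strain means correlated with those of 1455959_s_at at a Pearson r of 0.94 over 12 strains, both sets being read from the same arrays. Its signal averaged 479.3 ± 48.5 in BXH2, 632.7 ± 62.9 in BXH19 and 1253 ± 21.6 in BXH6, against 1105 ± 45.1 in F1, 787.3 ± 324.8 in C3 and 1222 ± 93.2 in B6 (SD, n = 2 each). It passed across the 12 strains (limma's adjusted p = 0.0162), but not without BXH2 replicate 1, where adjusted p was 0.0563. Between the RI strains the adjusted p was 0.0219, and the call was lost without BXH2 replicate 1 or either BXH6 array, with adjusted p up to 0.0771.

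**Figure D2:**
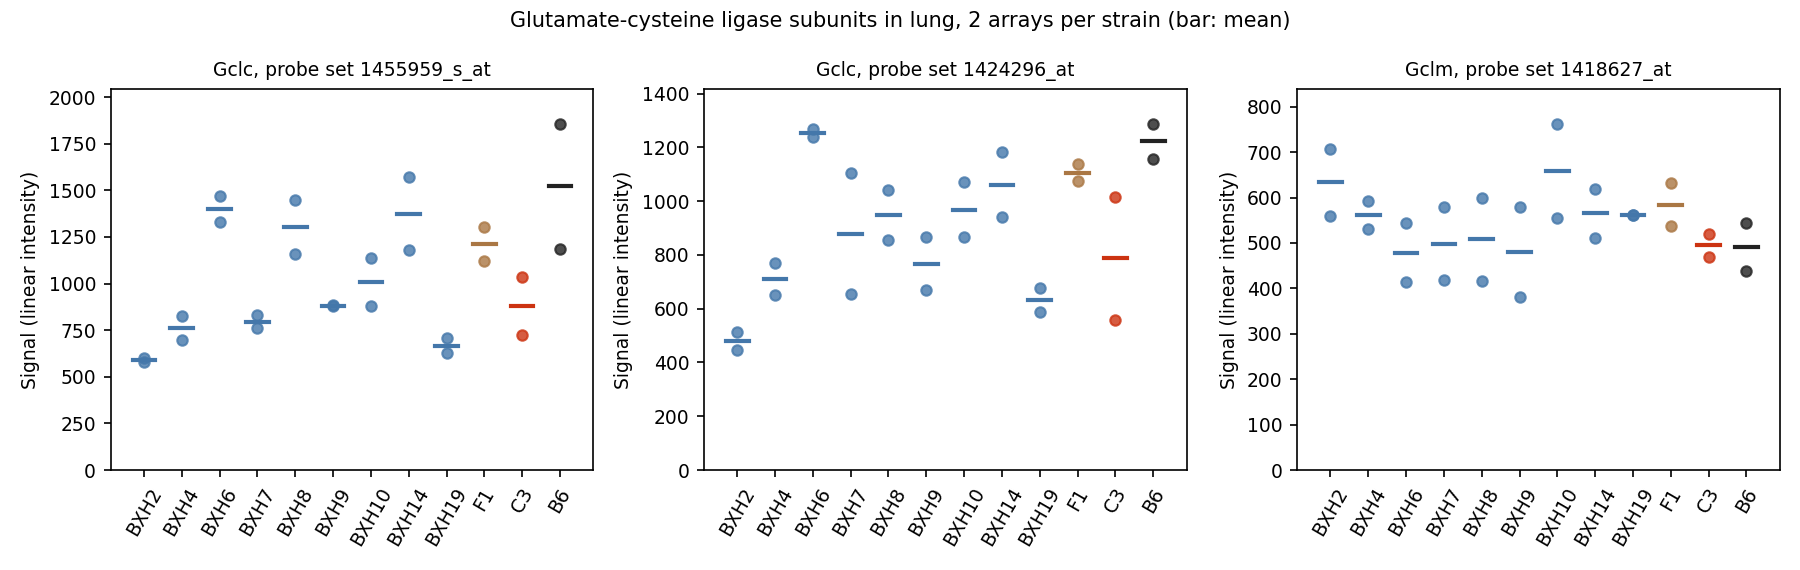
Signal (linear intensity, axes from 0) of the 2 Gclc probe sets and of Gclm in the 9 RI strains, F1, C3 and B6; points are single arrays and bars are means of 2. BXH2 is lowest in both Gclc panels, while the Gclm arrays of most strains overlap between 381.7 and 762.6.

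BXH2 lungs had the lowest Gclc. Its log2 difference from the average of the other 8 RI strains was -0.72 (SE 0.16, adjusted p = 0.0235) with 1455959_s_at and -0.85 (SE 0.19, adjusted p = 0.0242) with 1424296_at, both from limma. These were 2 of 19 member probe sets, against a background of 1.35% called in this contrast. Both calls were lost when either BXH2 array was left out, with values from -0.95 to -0.70 and adjusted p up to 0.334, and median centring moved 1455959_s_at to adjusted p = 0.0578.

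BXH6 lungs had the highest Gclc of the RI strains. With 1455959_s_at the log2 difference from the other RI strains was 0.65 (SE 0.16, limma's adjusted p = 0.0403), which was 1 of 19 member probe sets against a background of 1.77%. With 1424296_at the difference was 0.68 (SE 0.19, adjusted p = 0.0766). The call was lost in 10 of 24 fits that left out 1 array (BXH2 replicate 1, BXH4 replicate 1, BXH8 replicate 2, BXH19 replicate 2, or either array of BXH6, BXH7 or BXH9), and without both BXH4 arrays (adjusted p = 0.0633). It was also lost with median centring (adjusted p = 0.0710), no filter (0.0604) and no mean-variance trend (0.0534). BXH14 (0.61, adjusted p = 0.0634), BXH8 (0.53, adjusted p = 0.131) and BXH19 (-0.53, adjusted p = 0.128) did not pass with the same probe set.

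Between the progenitors Gclc did not pass. Its difference of C3 minus B6 was -0.77 (95% interval -1.21 to -0.33, limma's adjusted p = 0.0806) with 1455959_s_at and -0.68 (-1.20 to -0.16, adjusted p = 0.283) with 1424296_at. The 2 C3 arrays gave 557.6 and 1017 with 1424296_at. Without C3 replicate 2 this probe set passed at -1.11 (adjusted p = 0.0439), and without B6 replicate 1 the other passed at -1.09 (adjusted p = 0.0226). F1 lay near the midparent, the mean of C3 and B6 on the log2 scale, at differences of 0.09 and 0.20 (adjusted p = 0.944 and 0.876).

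Gclm encodes the modifier subunit that binds GCLC and raises its affinity for glutamate. Its signal on the 24 arrays had a lowest value of 381.7, a median of 549.7 and a highest of 762.6. The highest strain was BXH10 at 659.2 ± 146.2 and the lowest on the log2 scale BXH9 at 480.1 ± 139.2 (SD, n = 2 each). By mean signal BXH6 was lowest, at 478.3 ± 91.8, and most strains overlapped. Gclm did not pass across the 12 strains (range 0.46, limma's adjusted p = 0.712), nor in C3 minus B6 (0.02, 95% interval -0.47 to 0.50). Over the 12 strain means Gclc and Gclm had a Pearson r of -0.35, and whether the strain effect differed between the subunits was not tested.

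Gsta3, an alpha-class glutathione transferase that joins glutathione to electrophiles, was the other member that passed. Its promoter window is shown whole because it carries the match on the gene's own strand (RefSeq, GRCm38.p6, chr1:21240335-21240634, plus strand, match in capitals).
Gsta3 window: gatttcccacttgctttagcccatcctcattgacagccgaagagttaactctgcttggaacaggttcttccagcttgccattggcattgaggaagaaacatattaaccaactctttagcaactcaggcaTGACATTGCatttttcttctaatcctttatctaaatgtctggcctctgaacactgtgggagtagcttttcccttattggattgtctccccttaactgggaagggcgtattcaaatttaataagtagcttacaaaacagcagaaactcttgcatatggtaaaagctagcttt
With probe set 1423436_at the signals were 1020.1 and 1040.9 in BXH19, 1002.0 and 820.4 in BXH14, 1011.1 and 764.3 in BXH9, 782.1 and 771.3 in BXH8, and 810.9 and 651.7 in BXH10. They were 724.1 and 683.7 in BXH6, 684.5 and 558.3 in BXH4, 540.5 and 599.5 in BXH2, and 435.6 and 598.7 in BXH7. In F1 they were 932.3 and 984.4, in C3 634.3 and 540.7, and in B6 602.0 and 595.1. Both BXH19 arrays lay above all arrays of the other strains, and both F1 arrays lay above all arrays of C3 and B6. BXH19, the highest strain, exceeded BXH7, the lowest, by 1.99-fold (limma's 12-strain F = 7.20, adjusted p = 0.00444). Between the RI strains the adjusted p was 0.00736, and both calls were kept in all 24 fits that left out 1 array.

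From high to low the order of Gsta3 levels ran BXH19, F1, BXH14, BXH9, BXH8, BXH10, BXH6, BXH4, B6, C3, BXH2 and BXH7. The widest step, 0.18 on the log2 scale, lay between BXH6 and BXH4, and 0 steps exceeded the least difference of 0.36. As for Gclc, this cannot tell a gradual order from a stepped one. The means of 7 RI strains lay above both progenitors and those of 2 lay below both.

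**Figure D3:**
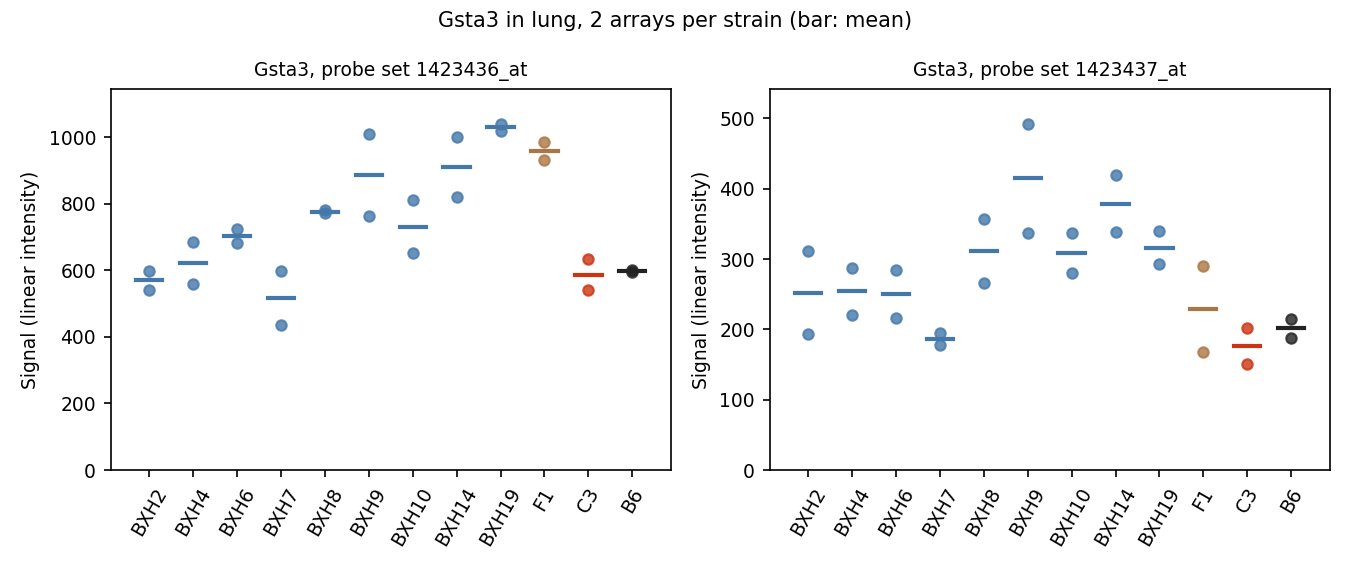
Signal (linear intensity, axes from 0) of the 2 Gsta3 probe sets in the 9 RI strains, F1, C3 and B6; points are single arrays and bars are means of 2. With 1423436_at BXH19 is highest at 1030.5 and F1 second at 958.3, above C3 at 587.5 and B6 at 598.5.

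BXH19 lungs had more Gsta3 signal than the other 8 RI strains on average, by 0.55 on the log2 scale (SE 0.13, limma's adjusted p = 0.0390), 1 of 19 member probe sets against a background of 1.35%. This call was lost in 11 of 24 fits that left out 1 array (BXH4 replicate 2, or either array of BXH6, BXH8, BXH19, F1 or B6). The values in those fits were 0.53 to 0.56. It was also lost with median centring (adjusted p = 0.0586) and with no filter (0.0537). BXH7 lungs had less, with a log2 difference from the other RI strains of -0.56 (SE 0.13, limma's adjusted p = 0.0306), 1 of 19 against a background of 1.41%. Without BXH7 replicate 1, whose signal was 435.6, the BXH7 value was -0.34 (adjusted p = 0.680), and median centring also ended the call (adjusted p = 0.0545).

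Between the progenitors Gsta3 did not pass. Its signal averaged 587.5 ± 66.2 in C3 and 598.5 ± 4.9 in B6 (SD, n = 2 each), and C3 minus B6 was -0.03 (95% interval -0.39 to 0.33, limma's adjusted p = 0.993). F1, at 958.3 ± 36.8, exceeded the midparent by 0.68 (SE 0.15, 95% interval 0.37 to 0.99). That difference did not pass over all probe sets (adjusted p = 0.119). The mean of the RI strains exceeded the midparent by 0.30 (adjusted p = 0.144).

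The dimmer Gsta3 probe set, 1423437_at, gave 150.1 to 492.6 and did not pass (limma's adjusted p = 0.0667 across the 12 strains and 0.149 across the RI strains). Across the 12 strains it passed without BXH2 replicate 1, BXH2 replicate 2 or F1 replicate 1, with adjusted p down to 0.0353. Its strain means correlated with those of 1423436_at at a Pearson r of 0.69. It was highest in BXH9, at 492.6 and 337.1, and lowest in C3, at 150.1 and 201.3. Its F1 arrays gave 290.1 and 167.3, a difference from the midparent of 0.22 (adjusted p = 0.876). The mean of the RI strains exceeded the midparent by 0.58 (95% interval 0.26 to 0.90, adjusted p = 0.0667), and without BXH2 replicate 2 this passed (adjusted p = 0.0416).

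Gstm1, a mu-class transferase, was bright and varied little with 2 of its 4 probe sets. Probe set 1448330_at ran from 2970 to 4458 and 1416416_x_at from 3408 to 5045, and their strain means correlated at a Pearson r of 0.90. F1 was the highest strain with both, at 4204 ± 359.6 with 1448330_at, against 3379 ± 556.4 in C3 and 3284 ± 3.3 in B6 (SD, n = 2 each). F1 minus midparent was 0.34 with that set and did not pass (limma's adjusted p = 0.544). The 2 dimmer sets, 1425626_at (358.4 to 679.6) and 1425627_x_at (752.6 to 1581), correlated with each other at 0.71 and with the bright pair at -0.05 to 0.24. Their ranges of strain means were 0.64 and 0.50 on the log2 scale, against 0.45 for 1448330_at and 0.35 for 1416416_x_at. The adjusted p of the 4 sets across the 12 strains lay between 0.281 and 0.641. Probe sets marked _x_at or _s_at can also bind related transcripts.

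Gsto1, an omega-class transferase that reduces dehydroascorbate and arsenic species, had single arrays far from their partners. With 1416531_at BXH6 gave 5919 and 3231 and C3 1890 and 4272, while B6 gave 3315 and 3320 (limma's adjusted p = 0.482 across the 12 strains). With 1456036_x_at C3 gave 2061 and 4572 (adjusted p = 0.538). The strain means of both probe sets correlated at a Pearson r of 0.15.

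Txnrd1 encodes the cytosolic thioredoxin reductase, which uses NADPH to keep thioredoxin reduced. Its range of strain means was 0.38, and the 24 arrays of 1421529_a_at had a lowest value of 986.2, a median of 1094 and a highest of 1431. C3 was highest at 1330 ± 143.5, against 1193 ± 60.4 in B6 (SD, n = 2 each), and 8 RI strains lay below both progenitors. The RI mean minus the midparent was -0.21 (limma's adjusted p = 0.136), and the adjusted p across the 12 strains was 0.422.

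Srxn1 encodes sulfiredoxin, which restores over-oxidised peroxiredoxins. With 1451680_at it ran from 248.6 to 386.9, with 1426875_s_at from 175.3 to 336.5 and with 1419942_at from 60.8 to 329.1. Across the 12 strains limma's adjusted p was 0.320, 0.706 and 0.754. Its 4 probe sets, one of them below the filter, had strain means that correlated at a Pearson r of -0.39 to 0.75, so they gave no common order of strains.

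Gsr encodes glutathione reductase, which regenerates reduced glutathione with NADPH. With 1421816_at it gave 846.7 and 1089 in C3, against 723.3 and 580.5 in B6, and the groups did not overlap. C3 minus B6 was 0.56 (95% interval 0.16 to 0.96) and did not pass over all probe sets (limma's adjusted p = 0.229). With 1421817_at the difference was -0.01 (95% interval -0.27 to 0.25), and the strain means of both sets correlated at a Pearson r of -0.36. Across the 12 strains the adjusted p was 0.160 and 0.225.

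Nqo1 encodes a quinone reductase that is widely used as a readout of NRF2 activity. Its signals were low, with a lowest value of 152.4, a median of 205.6 and a highest of 320.7. BXH8 gave 320.7 and 255.2 and BXH4 163.5 and 152.4. The progenitor arrays overlapped, at 153.7 and 257.4 in C3 against 309.1 and 155.7 in B6. Nqo1 did not pass across the 12 strains (range 0.80, limma's adjusted p = 0.621), nor in C3 minus B6 (-0.13, adjusted p = 0.984).

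Hmox1 encodes the inducible haem oxygenase, which breaks haem down to biliverdin, iron and carbon monoxide. It ran from 144.0 through a median of 253.1 to 374.5, and BXH2 alone gave 144.0 and 309.3. The range of strain means was 0.66 at an array SD of 0.30 (limma's adjusted p = 0.770). C3 minus B6 was 0.22 (95% interval -0.42 to 0.86).

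In C3 minus B6, limma called 0 of 19 member probe sets against a background of 1.8%, with 3 at an unadjusted p below 0.05. In F1 minus midparent it called 0 of 19 against a background of 0.11%, with 5 unadjusted. In the RI mean minus the midparent it called 0 of 19 against a background of 1.33%, with 4 unadjusted. Over all 13584 probe sets the unadjusted counts in these contrasts were 1239, 1000 and 1783, in the same order. These contrasts share the C3 and B6 arrays. Of the RI strains set against the other 8, BXH4 (background 8.15%), BXH8 (1.27%), BXH9 (2.38%), BXH10 (1.33%) and BXH14 (1.46%) had 0 member probe sets called, with 0, 2, 2, 2 and 5 at an unadjusted p below 0.05. Over all 13584 probe sets the unadjusted counts for these strains were 3281, 1351, 2394, 1599 and 1800. Over the 9 RI contrasts together 5 of 171 tests passed (2.92%), against 2.27% over all probe sets, so the members' share lay near the background.

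**Figure D4:**
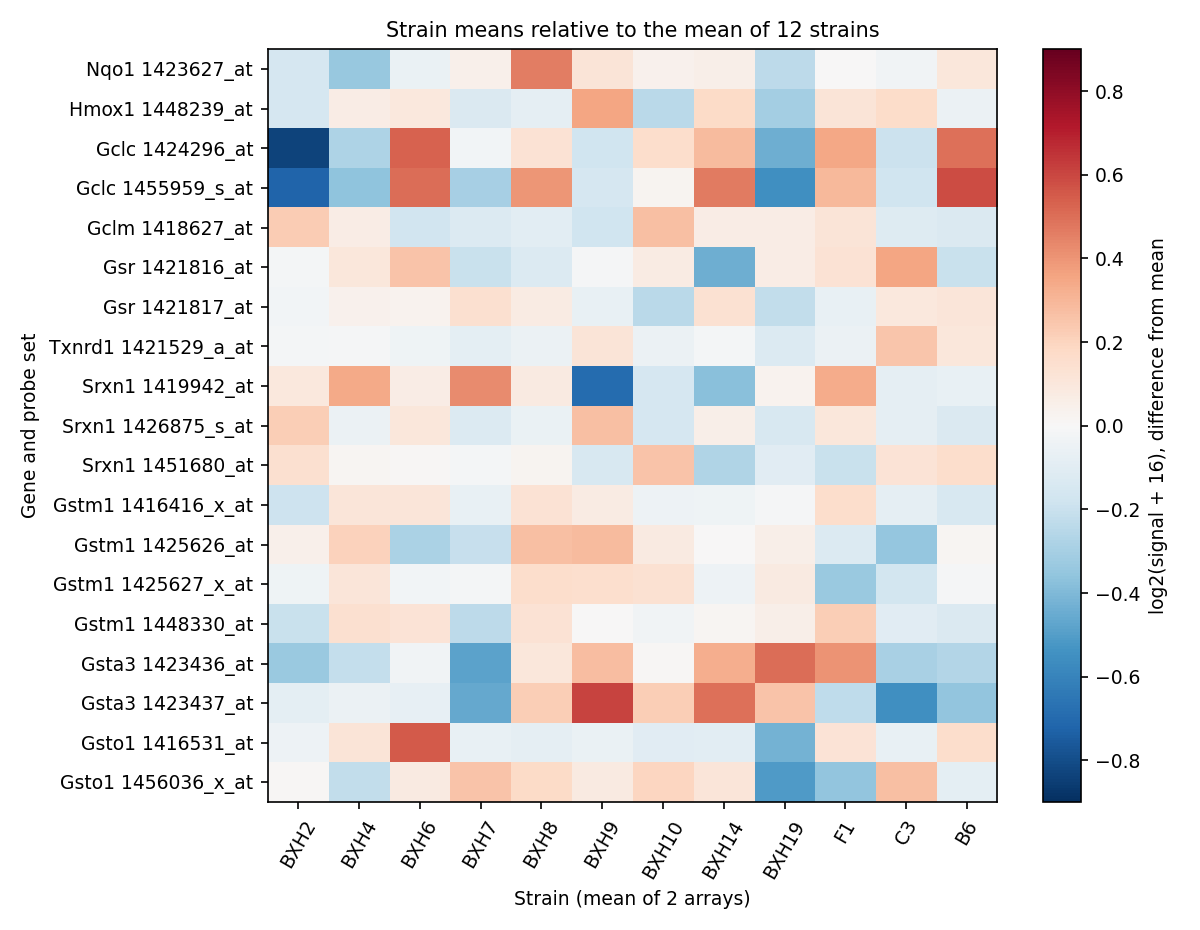
Strain mean of log2(signal + 16) minus the mean over the 12 strains (colour scale, log2 units) for the 19 tested member probe sets (down) in the 9 RI strains, F1, C3 and B6 (across). The 2 Gclc lines share their pattern (r = 0.94), as do Gstm1 1416416_x_at and 1448330_at (r = 0.90), while the 2 Gsto1 lines differ (r = 0.15).

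No pair of the 10 genes correlated past the threshold between strains. Each gene was taken by its brightest probe set, which gave 45 pairs over 12 strain means. Of these, 26 had a positive Pearson r, with a median of 0.09 and a range of -0.67 to 0.59. By the permutation test 0 of 45 passed (lowest adjusted p = 0.610, 3 at an unadjusted p below 0.05), and 0 passed by Spearman's rho.

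The 3 pairs past the unadjusted threshold involved different genes. Srxn1 and Gsta3 had r = -0.67 and rho = -0.59 (permutation p = 0.0189), and r was -0.78 without BXH14 and BXH10. In each pair the 2 strains left out were those farthest from the median in the first gene named. Strains were not left out by their level of the second gene. Nqo1 and Gclc had r = 0.59 and rho = 0.59 (permutation p = 0.0375), with r = 0.59 without BXH4 and BXH8. Hmox1 and Txnrd1 had r = 0.59 and rho = 0.68 (permutation p = 0.0407), with r = 0.41 without BXH9 and BXH19. All 3 had an adjusted p of 0.610. Differences between the 2 arrays of a strain were also correlated over the 12 strains, without centring. They gave -0.06 for Srxn1 and Gsta3, -0.27 for Nqo1 and Gclc and 0.59 for Hmox1 and Txnrd1.

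Nfe2l2 itself was well detected, at 1958 to 2986, and did not pass across the 12 strains (limma's adjusted p = 0.564) or in C3 minus B6 (-0.07). Keap1, its repressor, ran from 568.1 to 963.3 (adjusted p = 0.759). Of the 10 members 0 correlated with Nfe2l2 past the threshold (lowest adjusted p = 0.836, 0 at an unadjusted p below 0.05). Of the 10 r values 5 were positive, with a median of -0.02. The highest was Gsta3, with r = 0.50 and rho = 0.55 (permutation p = 0.102). Its r was 0.28 without BXH19 and BXH7, the strains farthest from the Gsta3 median. Gclc had r = 0.37. Array differences within strains correlated with those of Nfe2l2 at 0.62 for Gsta3, 0.49 for Gclm and 0.41 for Gclc, but at -0.63 for Gsr. The remaining members had -0.05 to 0.38, and no test was made of these values. These are RNA levels, and NRF2 is controlled mainly as a protein.

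Of 78 further genes listed for the same pathways, 62 were tested and 7 passed across the 12 strains, against the background of 9.79%. Without the BXH4 arrays, which stood apart, 3 of the 62 passed, against 7.6% of all probe sets in that fit. At an unadjusted p below 0.05 there were 20 of the 62, against 3422 of all 13584 probe sets. By limma 0 of 9 genes of NRF2 and its regulators passed (0 unadjusted), and 0 of 5 of NADPH supply (3 unadjusted). Glutathione synthesis and use had 1 of 8, Gpx3, the secreted glutathione peroxidase, highest in BXH4 and lowest in BXH6 (limma's adjusted p = 0.0229, and 0.0384 without BXH4). Thioredoxin and peroxiredoxin had 1 of 6, Prdx3, a mitochondrial peroxiredoxin, at 1099 ± 11 in BXH8 and 670.6 ± 34.6 in BXH19 (SD, n = 2 each, adjusted p = 0.0425, and just above the threshold without BXH4). The other glutathione transferases had 1 of 16, Mgst3, a microsomal transferase, highest in BXH6 and lowest in BXH4 (adjusted p = 0.0292, and 0.251 without BXH4). Haem and iron had 2 of 5, the transferrin receptor Tfrc (adjusted p = 0.0211) and the constitutive haem oxygenase Hmox2 (adjusted p = 0.0365). Both were lowest in BXH4, and without it their adjusted p was 0.0952 and 0.632.

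The other detoxification enzymes and exporters had 2 of 13. Abcc3, an exporter of glucuronide and glutathione conjugates, averaged 465.5 ± 140.6 in BXH2, 1141 ± 66.7 in C3 and 637.4 ± 86.7 in B6 (SD, n = 2 each, limma's adjusted p = 1.19e-04). It was the 1 of 62 listed genes that passed in C3 minus B6, where it was higher by 0.83 (adjusted p = 0.0133). The background in that contrast was 1.8%. Ephx1, the microsomal epoxide hydrolase, averaged 2872 ± 61.3 in BXH10, 1640 ± 291.2 in C3 and 1837 ± 50.9 in B6 (SD, n = 2 each, adjusted p = 0.00531). Both passed without BXH4. The median range of strain means was 0.54 over the 62 genes and 0.57 over all probe sets.

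As a description, the genes whose strain pattern was most like that of Gclc were Lrrc1, Aard and Phf5a, with Pearson r of 0.83, 0.83 and 0.81 over the 12 strain means, among 1191 probe sets that passed across the strains and had 1 symbol. For Gsta3 they were Msmo1, Pde7a and Mmd, at 0.75, 0.69 and 0.65. They were picked as the highest of many, so no test was made of these values.

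Lrrc1 lies on the same chromosome as Gclc and is the third gene before it in RefSeq order. With 1452411_at Lrrc1 gave 132.6 and 166.7 in BXH2, 133.0 and 173.0 in BXH4, 349.6 and 317.5 in BXH6, 172.5 and 382.4 in BXH7, and 564.4 and 562.0 in BXH8. It gave 282.7 and 272.4 in BXH9, 539.7 and 471.5 in BXH10, 371.6 and 464.9 in BXH14, and 100.5 and 142.5 in BXH19. In F1 it gave 317.2 and 358.5, in C3 169.0 and 152.3, and in B6 395.4 and 466.6. BXH2, BXH4, BXH19 and C3 were low on both arrays and F1 lay between both progenitors. Lrrc1 was lower in C3 than in B6, with a log2 difference of -1.34 (SE 0.26, limma's adjusted p = 0.00724). Passing limma's F test across the 12 strains (adjusted p = 7.31e-05 for Lrrc1) was a condition of the search that named it. The C3 and B6 arrays were part of that search. Over the RI strains alone its r with Gclc was 0.84. This uses 9 of the 12 strain means by which Lrrc1 was picked, so it is no separate support.

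**Figure D5:**
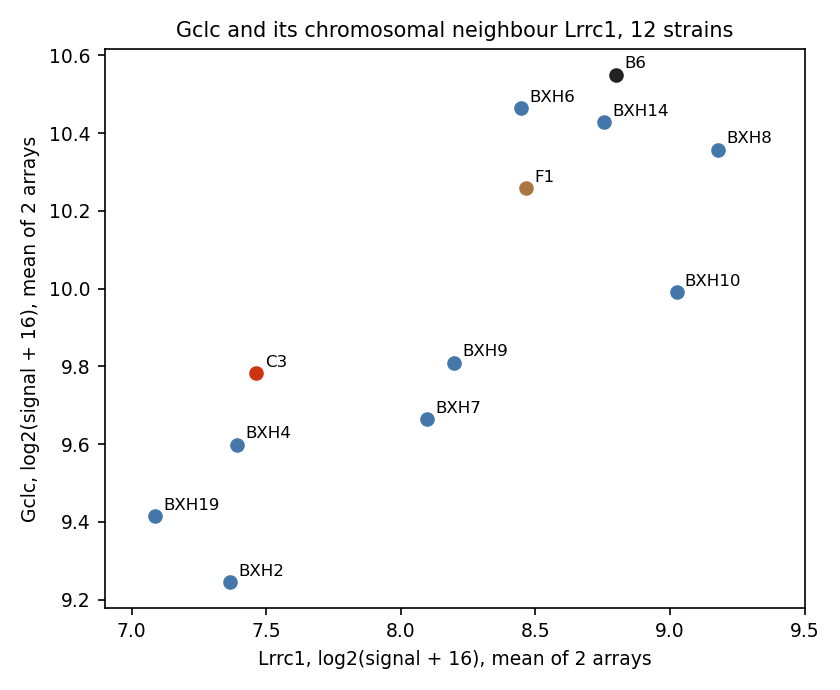
Strain mean of log2(signal + 16) of Gclc probe set 1455959_s_at (vertical axis) against Lrrc1 probe set 1452411_at (horizontal axis), one labelled point per strain. Strains low in Lrrc1 (BXH2, BXH19, BXH4 and C3) are also among the lower ones in Gclc. Lrrc1 was picked for its r with Gclc, 0.83 over these 12 strains.

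Among the 25 genes on each side of Gclc, 10 were tested and 1 passed across the strains, Lrrc1. The background over all probe sets was 9.79%. Of the other neighbours tested, Gsta4 had an r with Gclc of -0.30 and Gsta2 of -0.06, while Elovl5 had -0.57 and Lysmd2 -0.77. Around Gsta3, 2 neighbours were tested and 0 passed.

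Levels of cell type markers were set beside both genes, as the Pearson r of a list's mean log2 signal with the gene over the 12 strain means, with no test. For club cells, an airway cell rich in detoxification enzymes, all 6 markers were above the filter, and their summed signal ran from 53314 to 81752. Across the strains limma called 0 of 6, against a background of 9.79%. At an unadjusted p below 0.05 there were 0 of 6, against 3422 of all 13584 probe sets. The list mean had an r of -0.37 with Gclc and 0.31 with Gsta3, and log2 of the summed signal -0.44 and 0.25. For alveolar macrophages 4 of 5 tested markers passed, against the same background of 9.79%, and the summed signal ran from 5159 to 11893. The list mean had an r of -0.25 with Gclc and 0.31 with Gsta3, and log2 of the summed signal -0.01 and 0.32. By the list mean, alveolar type 2 markers had -0.30 and -0.10, alveolar type 1 markers 0.02 and -0.25, and endothelial markers -0.29 and -0.23. Fibroblast markers had 0.11 and 0.40, fat cell markers 0.13 and 0.50, and skeletal muscle markers 0.12 and 0.08. Liver markers had 0.20 and -0.05, with 1 array, BXH8 replicate 1, far above the rest in summed signal. Ciliated cell markers had 0.19 and -0.11, and red cell markers 0.17 and -0.01. Above the filter were 5 of 7 alveolar macrophage, 1 of 3 fat cell, 2 of 4 liver, 1 of 2 ciliated cell and 2 of 3 red cell markers. Across the strains 5 of 6 skeletal muscle and 2 of 5 fibroblast markers also passed. So did 1 of 6 type 2, 1 of 2 red cell and 1 of 1 fat cell markers. The type 1, endothelial, ciliated cell and liver lists had 0 of 5, 0 of 5, 0 of 1 and 0 of 2, against the same background of 9.79%. No marker was at 0 on any array, and the part of these cells in the Gclc and Gsta3 differences was not tested.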

How the data were processed

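RNA was measured on Affymetrix Mouse 430A arrays. Each deposited value is a linear intensity (signal) per probe set. What software made the signals is not given in the sources used here. Each array's mean without the top and bottom 2% of its values was 500.11 to 500.13, and its median between 239 and 269.6 (log2 range 0.17, under the limit of 0.3), so no further normalization was applied. Gene symbols came from GEO's platform annotation. Groups and array numbers came from the labels.

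Signals were analysed as log2(signal + 16), which understates changes of dim genes. Probe sets with a mean in the top 60% (174.9 or more, control probe sets left out) were fitted with limma 3.58.1 in R 4.3.3, with 12 strain means, a mean-variance trend and Benjamini-Hochberg adjustment over 13584 probe sets. Calls were made at an adjusted p below 0.05. Correlations used strain means and 100000 permutations, two-sided, adjusted over 45 pairs or over 10. Tables were handled with Python 3.11.15. The fit was tested on simulated data. The 2 arrays per strain limit the precision. The correlation of array differences between strains (-0.28 to 0.32 over 66 pairs, 21 above 0.1) does not pair array numbers.

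The members and lists were chosen with earlier results of these data known. Named were all members, listed pathway genes that passed (at most 4 a list), Nfe2l2, Keap1, and the 3 genes most like each member that passed. Neighbours were named after their values were seen. Alternatives were other normalizations, offsets, filters, a replicate block, and leaving out arrays.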

Additional observations from a re-analysis of the deposited data

How the results depend on the processing

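The count of member probe sets called across the 12 strains (3), across the RI strains (3), in C3 minus B6, F1 minus midparent and RI mean minus midparent (0 each), and of members correlated with Nfe2l2 (0), stayed within 1.5 times under quantile normalization, median centring, offsets of 1 and 64, other filters, 1 probe set per gene and no trend, where these apply. The 5 calls in single RI strains were 1 with median centring and 3 with no filter, and the cause was not tested. Median centring took the calls of Gclc 1455959_s_at in BXH2 and BXH6 and of Gsta3 in BXH7 and BXH19 to adjusted p values of 0.0545 to 0.0710 in limma. No filter ended the BXH6 Gclc and BXH19 Gsta3 calls, and no mean-variance trend the BXH6 Gclc call. Among member pairs 1 passed, in place of 0, when each gene was the mean of its probe sets. This was Gsr and Txnrd1, with r = 0.85 (permutation adjusted p = 0.0225), against r = 0.28 with the brightest probe sets. The means took in probe sets below the filter. For Txnrd1 these were 1424486_a_at and 1424487_x_at, which correlated with 1421529_a_at at 0.39 and -0.05. The Gsr probe sets correlated with each other at -0.36. With a replicate block on the array numbers, the counts across the 12 strains, the RI strains, C3 minus B6, F1 minus midparent, RI mean minus midparent and single RI strains were 3, 3, 0, 0, 0 and 5, so the block changed no call. Leaving out 1 array gave 3 to 4 calls across the 12 strains, 2 to 3 across the RI strains, 0 to 1 in C3 minus B6, 0 to 0 in F1 minus midparent, 0 to 1 in RI mean minus midparent, 2 to 8 in single RI strains, 0 to 0 pairs and 0 to 0 with Nfe2l2. Leaving out both BXH4 arrays, chosen after seeing the data, gave 3, 3, 0, 0, 0 and 4 calls in the same order, and took the listed pathway genes that passed to 3, in place of 7. Of 1620 values of 48 member results under the alternatives, 38 lost their call and 6 gained one. Most of the 48 were not called in the main fit, so they could not lose a call. Most were also F statistics, which have no sign, and among the contrasts 0 values changed sign. Over all probe sets, 1 probe set per gene (8277 genes) gave 857 calls across the 12 strains in place of 1330, 777 in place of 1248 across the RI strains, 142 in place of 244 in C3 minus B6 and 3 in place of 15 for F1, and the cause was not tested. Fitting only the arrays compared gave 124 for C3 minus B6 and 8 for F1. No detection call was used here, so low signals such as Nqo1 and Hmox1 have no stated detection limit.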
